A study of Mus musculus with 2 samples.

Results

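The proteasome genes were taken as every gene symbol made of Psma to Psmg and a number, which 48 of the 35602 symbols in the table matched. Of these, 47 had a combined count of at least 20 over both libraries and are described here, of 18687 genes that met the same minimum. The 1 symbol left out was Psmb11, the thymus-specific catalytic subunit, with 3 and 7 counts, and the member nearest above the minimum was Psma8, a testis form of an alpha subunit, with 50 and 27 counts. Both groups were breast tumour tissue of mice injected intraperitoneally with a PD-1 inhibitor, a treatment that blocks a brake on activated T cells. In 1 group this was the only treatment (inhibitor alone), and the other group also received acupuncture. The sources used here do not give the strain, the tumour model, the age or how many animals each library came from. The comparison asks what differs in tumour RNA when acupuncture is added to the inhibitor.

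The proteasome is the protease of the cytosol and nucleus that degrades ubiquitin-tagged proteins. Its 20S core is a barrel of outer alpha rings, which gate the entrance, and inner beta rings, in which Psmb5, Psmb6 and Psmb7 encode the catalytic subunits of most tissues. Interferon gamma induces Psmb8, Psmb9 and Psmb10, which take the places of Psmb5, Psmb6 and Psmb7 in newly assembled cores, and it also induces Psme1 and Psme2, the alpha and beta subunits of the PA28 activator. The resulting immunoproteasome is constitutive in lymphocytes and dendritic cells and favours cuts that leave peptide ends suited to MHC class I. The 19S particle, built of the Psmc ATPases and the Psmd subunits, caps the core, unfolds substrates and removes ubiquitin.

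There was 1 library per group, so no difference between the libraries has a replicate check and no p-value was computed. Ratios are acupuncture over inhibitor alone, from counts scaled by TMM and given as counts per 1000000 (CPM), and the bracketed 95% intervals are exact binomial intervals that cover counting error only. The libraries held 105728292 counts with inhibitor alone and 60752043 with acupuncture. At that depth the tested members had 77 to 75604 counts in both libraries together, and the intervals of most were narrow. Directions are those under TMM scaling, which puts the median log2 ratio of all tested genes at 0.0003. Scaling by total counts adds 0.10 to every gene and brought 5 members from below to above 0, namely Psmc3, Psmb7, Psmd2, Psmc5 and Psmb1. Centring the epithelial markers on 0 adds 0.44 and did so for 17 of the 18 members below 0, all but Psmg4. The 5 inducible genes lay above 0 under every scaling tried. Differences in which cells the 2 pieces of tissue held are not part of any interval. The epithelial markers, which do not single out mammary tissue, were all above 0 in each library, 17 of 17. At this depth that is a weak check, as Krt5 had 10 counts with acupuncture. Their summed levels were 4557 CPM with inhibitor alone and 3165 CPM with acupuncture.

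Promoter sequences are given for some of the members whose contrast the results turn on, from the RefSeq table of build GRCm38.p6, which is not the GRCm39 build of the counts. Each window runs from 250 bases before the annotated start to 50 after it, 5′ to 3′ on the strand of the gene. Psmb8 (chr17:34197945-34198244, plus strand), Psmb9 (chr17:34187281-34187580, minus strand) and Psme1 (chr14:55578244-55578543, plus strand) are shown from the inducible genes, and Psmb5 (chr14:54617946-54618245, minus strand) from the constitutive genes. Capitals mark matches on either strand to GAAA followed after any 2 bases by GAAA (a paired element of the type bound by interferon regulatory factors), TTCNNNGAA (the palindrome of gamma-activated sites), TGACNNNGC (the core of antioxidant response elements) and GGGCGG (the GC box).
Psmb8: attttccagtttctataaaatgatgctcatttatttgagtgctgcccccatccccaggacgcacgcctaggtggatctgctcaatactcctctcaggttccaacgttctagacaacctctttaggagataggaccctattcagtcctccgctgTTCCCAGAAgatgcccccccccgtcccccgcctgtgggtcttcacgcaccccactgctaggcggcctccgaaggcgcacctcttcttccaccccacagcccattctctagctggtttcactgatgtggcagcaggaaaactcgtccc
Psmb9: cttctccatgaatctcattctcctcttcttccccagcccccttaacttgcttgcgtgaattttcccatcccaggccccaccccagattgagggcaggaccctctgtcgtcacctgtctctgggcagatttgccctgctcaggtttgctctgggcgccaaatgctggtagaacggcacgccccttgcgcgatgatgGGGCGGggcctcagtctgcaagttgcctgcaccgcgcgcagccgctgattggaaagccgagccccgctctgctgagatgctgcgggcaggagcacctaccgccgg
Psme1: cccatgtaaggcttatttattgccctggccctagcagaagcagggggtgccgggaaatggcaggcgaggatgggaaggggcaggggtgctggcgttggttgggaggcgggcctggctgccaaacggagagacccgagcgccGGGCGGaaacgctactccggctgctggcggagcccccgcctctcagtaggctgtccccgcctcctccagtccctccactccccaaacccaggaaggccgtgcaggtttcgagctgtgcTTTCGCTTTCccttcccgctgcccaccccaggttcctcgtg
Psmb5: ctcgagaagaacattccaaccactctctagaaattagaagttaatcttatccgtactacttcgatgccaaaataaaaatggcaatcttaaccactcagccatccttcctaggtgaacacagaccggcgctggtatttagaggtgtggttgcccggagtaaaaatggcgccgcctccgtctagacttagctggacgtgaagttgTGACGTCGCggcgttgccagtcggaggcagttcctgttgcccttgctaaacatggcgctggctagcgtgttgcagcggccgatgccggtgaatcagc

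In the Psmb8 window the capitals are a gamma-activated palindrome that begins 97 bases before the start. In Psme1 they are a GC box and, just after the start, a paired GAAA element read on the opposite strand. The Psmb9 window held a GC box, and the Psmb5 window held an antioxidant-type core that begins 47 bases before the start. Of the inducible genes not shown, Psmb10 had no match in its window and Psme2 had GC boxes only. Windows were found for 39 of the 47 members. The paired GAAA element lay in 5 of these 39, 1 of them among the 5 inducible genes, against 3.86% of the 14365 tested genes that had a window. TTCNNNGAA lay in 3 of the 39, 1 of them inducible, against 8.66%. TGACNNNGC lay in 6 of the 39, all among the 34 windows of other members, against 16.1%, and GGGCGG lay in 23, of which 3 were inducible, against 58.9%. A match is a string of letters in the window and says nothing of binding in these tumours.

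The catalytic subunits of the immunoproteasome stood highest among all proteasome genes. Psmb10, the trypsin-like immune subunit, had 15544 counts with inhibitor alone and 15064 with acupuncture, which is 152 and 239 CPM. Its ratio was 1.57 (1.54 to 1.61). Psmb9, the immune subunit in the place of Psmb6, had 8603 and 8245 counts, or 84.3 and 131 CPM, and a ratio of 1.56 (1.51 to 1.60). Psmb8, the chymotrypsin-like immune subunit, had 25342 and 21821 counts, or 248 and 347 CPM, and a ratio of 1.40 (1.37 to 1.42). All 3 were higher in the acupuncture library, and they ranked 1, 2 and 3 among the 47 members. Among all tested genes the ratio of Psmb10 stood at percentile 85.9, that of Psmb9 at 85.6 and that of Psmb8 at 81.4. These positions depend on the set, since genes with few counts spread more widely. The 90th percentile of the log2 ratio was 0.91 over all tested genes. It was 0.38 over genes with at least 2000 combined counts, a minimum added after the data were seen. Psmb10, Psmb9 and Psmb8 had log2 ratios of 0.65, 0.64 and 0.48.

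The inducible activator subunits followed at smaller ratios. Psme2, the beta subunit of PA28, had 29327 and 23216 counts, or 287 and 369 CPM, with a ratio of 1.28 (1.26 to 1.31) and rank 4. Reads of Psme2 may be shared with its copy Psme2b, which had 235 and 160 counts. Psme1, the alpha subunit, had 35859 and 24789 counts, or 351 and 394 CPM, and a ratio of 1.12 (1.10 to 1.14), at rank 17, so that 12 other members lay between it and Psme2. The ratio of Psme2 to Psme1 was itself 1.15 times as high with acupuncture (1.12 to 1.17), although these partners form 1 ring. Psme3, the nuclear PA28 gamma subunit, which interferon gamma does not induce, had 10078 and 7376 counts and a ratio of 1.19 (1.15 to 1.22), above that of Psme1. Psme4, the activator PA200, had 9518 and 6666 counts and a ratio of 1.14 (1.10 to 1.17).

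The constitutive catalytic subunits were lower with acupuncture under TMM scaling, though Psmb7 was not under total counts and none was with the epithelial markers centred on 0. Psmb5, the chymotrypsin-like subunit that Psmb8 replaces, had 7966 and 3847 counts, or 78.0 and 61.1 CPM, with a ratio of 0.784 (0.754 to 0.814). Psmb6, the caspase-like subunit, had 11469 and 6322 counts, or 112 and 100.5 CPM, with a ratio of 0.894 (0.867 to 0.922). Psmb7, the trypsin-like subunit, had 20813 and 12545 counts, or 204 and 199 CPM, with a ratio of 0.978 (0.9565 to 0.9999), at the edge of its counting interval. The ratio furthest from 1 was that of Psmb5, the least abundant of them in counts.

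The change between libraries in the count ratio of a gene pair does not depend on the scaling, and a fixed length of each gene cancels in it. A difference between the libraries that varies with mRNA length would not cancel, and the lengths are given with base composition below. The ratio within 1 library does depend on the lengths of both genes. The count of Psmb8 over that of Psmb5 was 3.18 with inhibitor alone and 5.67 with acupuncture, 1.78 times as high (exact conditional 95% interval 1.71 to 1.86). Psmb9 over Psmb6 was 0.750 and 1.30, 1.74 times as high (1.66 to 1.82). Psmb10 over Psmb7 was 0.747 and 1.20, 1.61 times as high (1.56 to 1.66). The 3 substitution pairs thus differed between the libraries in the same direction and by similar factors. Among the immune subunits themselves the balance differed less. Psmb10 over Psmb9 was 1.01 times as high with acupuncture (0.974 to 1.05), while Psmb9 over Psmb8 was 1.11 times as high (1.07 to 1.15). Among the constitutive subunits Psmb5 over Psmb7 was 0.801 times its value with inhibitor alone (0.766 to 0.838).

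Levels of different genes can be set side by side only per length, here as CPM per 1000 bases of the principal mRNA in GENCODE release M21. On that scale Psmb8 stood at 152 with inhibitor alone and at 213 with acupuncture, and Psmb5 at 86.8 and 68.0. Psmb8 made up 63.7% of the Psmb8 and Psmb5 level with inhibitor alone and 75.8% with acupuncture. Psmb9 made up 30.7% and 43.5% of its pair with Psmb6. Psmb10 made up 39.8% and 51.5% of its pair with Psmb7. The size of each share depends on the length used. With all annotated exons of the gene the shares were 45.8% and 60.1% for Psmb8, 27.7% and 40.0% for Psmb9, and 60.0% and 70.7% for Psmb10. Each immune share was higher in the acupuncture library. That direction follows from the count ratio of the pair, since the same lengths serve both libraries, so neither length could reverse it.

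**Figure D1:**
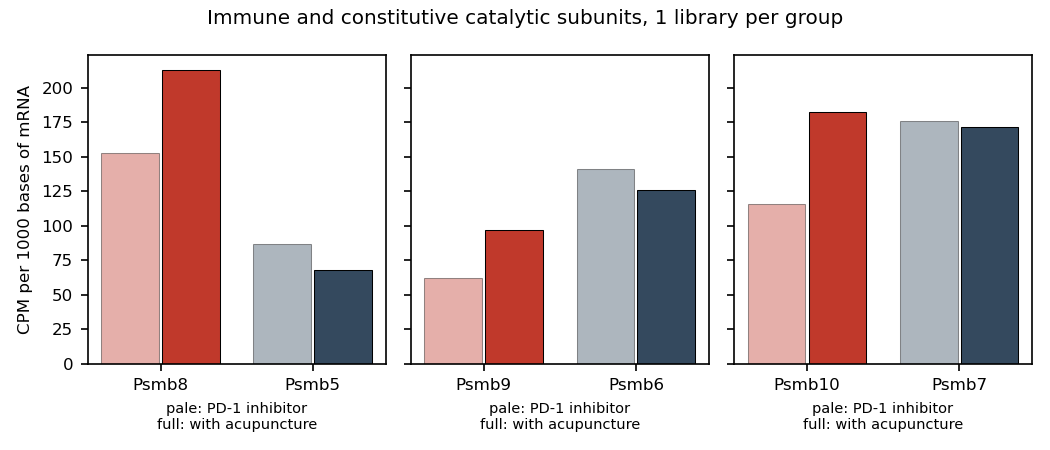
Levels of the immune catalytic subunits (red) and of the constitutive subunits whose places they take (blue), as CPM per 1000 bases of mRNA. Each bar is 1 library, pale for the inhibitor alone and full for the inhibitor with acupuncture; every red bar is taller with acupuncture and, under this TMM scaling, every blue bar shorter (not Psmb7 by total counts, and none with the epithelial markers centred on 0), as for Psmb8 at 152 and 213 and Psmb5 at 86.8 and 68.0.

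None of the 47 members reached a 2-fold difference with an interval that excluded 1, against 9.21% of all tested genes on the higher side and 4.9% on the lower side. At 1.5-fold, 2 members were higher, Psmb10 and Psmb9, and none was lower, against backgrounds of 14.3% and 10.3%. At a limit 25% above 1, or its inverse, 4 members were higher under TMM scaling, all of them inducible, against 21.3%, and 4 others were lower, Psmg4, Psmd10, Psmb5 and Psmg3, against 19.2%. These counts rest on the scaling. By total counts 10 members were higher at this limit, 6 of them outside the inducible group, against 27.1% of all genes, and 1 was lower, against 14.3%. With the epithelial markers centred on 0, 34 were higher, 29 of them outside the inducible group, against 56.6% of all genes, and 0 were lower. At 1.5-fold that last scaling gave 21 higher, against 35.5%, and both other scalings 2. A minimum of 2000 combined counts, added after the data were seen, left 9929 genes and 46 members, and the shares at this last limit under TMM scaling were then 12.9% and 19.3%. Under TMM scaling the members were called in a smaller share than all tested genes at each of these limits. The median log2 ratio of the 5 inducible genes was 0.48, that of the 42 other members was 0.08 against 0.0003 over all tested genes. The gap between the first 2 medians, 0.40, does not depend on the scaling. The inducible genes ran from 0.17 for Psme1 to 0.65 for Psmb10 and the other members from -0.51 for Psmg4 to 0.29 for Psmd6, so the groups overlapped only through Psme1. The rule named the inducible genes for what interferon gamma is known to do.

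**Figure D2:**
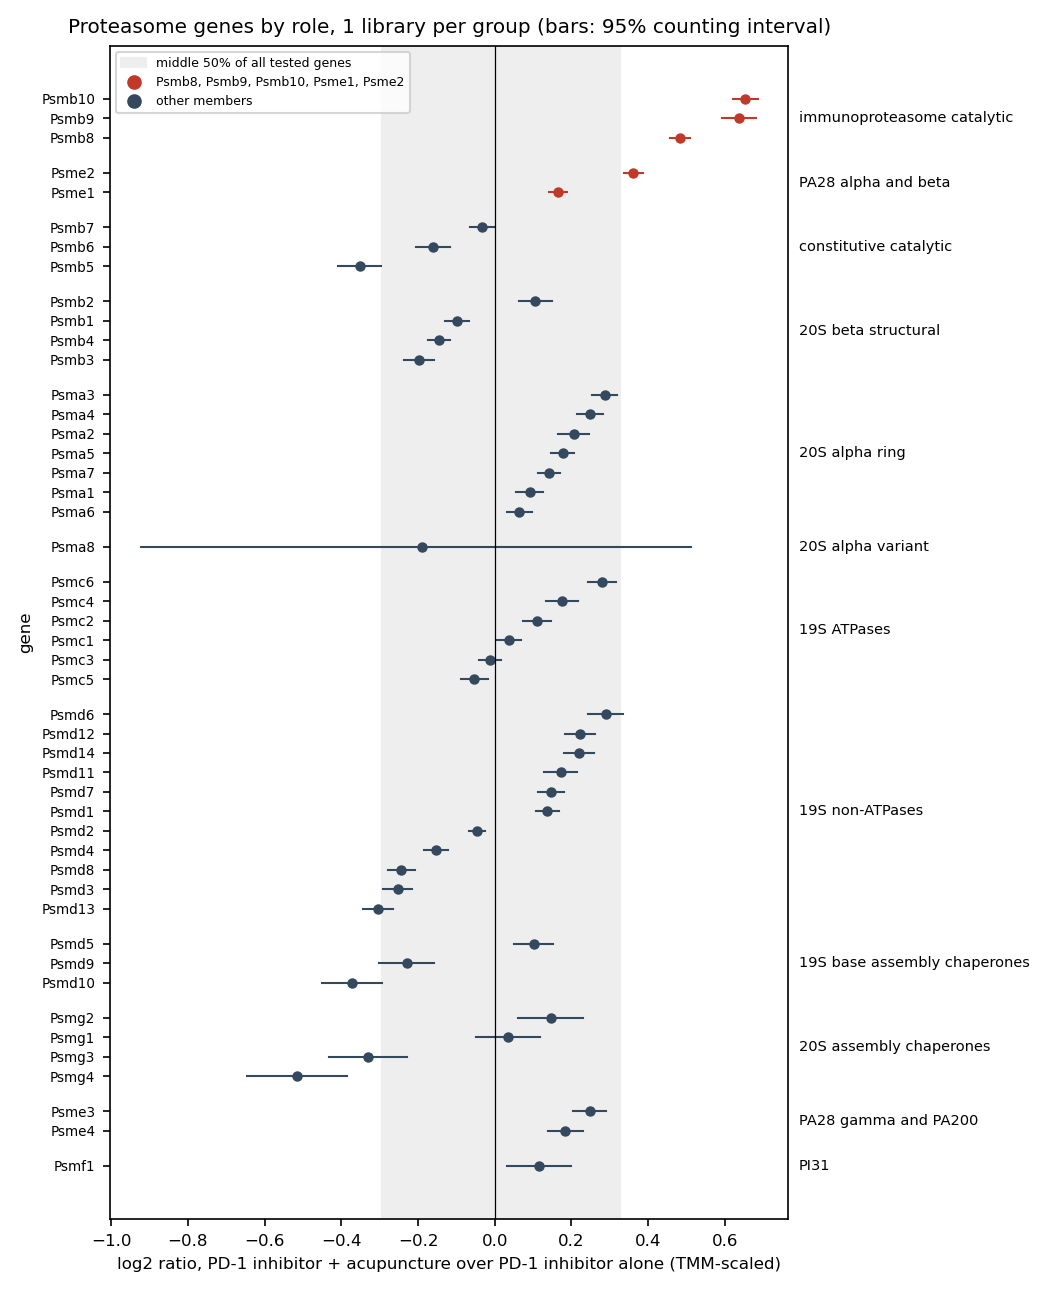
Log2 ratio of each of the 47 proteasome genes, acupuncture over inhibitor alone, grouped by role; horizontal bars are 95% counting intervals and the grey band holds the middle 50% of all tested genes. The immune catalytic genes lie to the right of the band and the alpha ring lies wholly above 0, whereas the constitutive catalytic genes lie below 0 under this TMM scaling, which does not hold for Psmb7 by total counts or for any of them with the epithelial markers centred on 0.

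Among genes of the core that interferon does not exchange, all 7 of the alpha ring were higher with acupuncture with intervals above 1, and their median log2 ratio was 0.18. Relative to genes of like GC content 4 of the 7 lay above 0 and 3 below. Psma3 led them with 17354 and 13051 counts and a ratio of 1.22 (1.193 to 1.248). Psma4 followed with 16394 and 12000 counts and a ratio of 1.19 (1.16 to 1.22). Psma2 had a ratio of 1.15 (1.12 to 1.19), Psma5 one of 1.13 (1.11 to 1.15), Psma7 one of 1.10 (1.08 to 1.12) and Psma1 one of 1.06 (1.04 to 1.09). Psma6 was the least different with 18318 and 11807 counts and a ratio of 1.05 (1.02 to 1.07). Of the 4 structural beta genes, 3 were lower under TMM scaling with intervals below 1 and 1 was higher; Psmb1 crossed 0 by total counts and all 3 did so with the epithelial markers centred. Psmb3 had 15354 and 8250 counts and a ratio of 0.872 (0.849 to 0.896), Psmb4 a ratio of 0.904 (0.887 to 0.922), Psmb1 a ratio of 0.934 (0.914 to 0.954), and Psmb2 a ratio of 1.08 (1.05 to 1.11). Over all members 28 had intervals above 1 and 16 below 1, against 35.1% and 34.8% of all tested genes. Counting intervals narrow with depth, so these shares do not come from genes of like count. At least 2000 combined counts were held by 46 of the 47 members and by 9929 of the 18687 tested genes. No share among those 9929 genes was taken for the interval alone. The testis subunit Psma8 had a wide interval, with a ratio of 0.876 (0.527 to 1.43).

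Genes of the 19S particle also lay on both sides of 1 (under TMM scaling). Of the 6 ATPase genes, which drive unfolding, 4 were higher, 1 was lower and 1 had an interval that held 1. Psmc6 had 14267 and 10669 counts and a ratio of 1.21 (1.18 to 1.24), and Psmc5 had 16917 and 10052 counts and a ratio of 0.964 (0.940 to 0.988). Between them lay Psmc4 at 1.13 (1.10 to 1.16), Psmc2 at 1.08 (1.05 to 1.11), Psmc1 at 1.03 (1.004 to 1.049) and Psmc3 at 0.992 (0.972 to 1.01). Of the 11 non-ATPase genes 6 were higher and 5 lower. Psmd6, a lid subunit, had 9239 and 6959 counts and a ratio of 1.22 (1.18 to 1.26), the highest of any member outside the inducible group. Psmd14, the deubiquitinase that releases ubiquitin chains from substrates, had 12850 and 9220 counts and a ratio of 1.16 (1.13 to 1.20). Psmd12 had a ratio of 1.17 (1.14 to 1.20), Psmd11 one of 1.13 (1.09 to 1.16), Psmd7 one of 1.11 (1.08 to 1.13) and Psmd1 one of 1.10 (1.08 to 1.12). At the other end Psmd13 had 15127 and 7550 counts with a ratio of 0.810 (0.788 to 0.833), and Psmd3 had 17075 and 8831 counts with a ratio of 0.839 (0.818 to 0.861). Psmd8 had a ratio of 0.845 (0.825 to 0.865). Psmd4, a ubiquitin receptor, had a ratio of 0.90 (0.880 to 0.920). Psmd2, a scaffold of the base and the member with the most counts at 47338 and 28266, had a ratio of 0.969 (0.955 to 0.983). The summed CPM of the non-ATPase genes was 0.997 times its level with inhibitor alone.

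Genes that help the particle to assemble lay on both sides of 1 under TMM scaling, and 2 of the 7, Psmg4 and Psmd10, held the lowest ratios of all members. Psmg1 to Psmg4 encode chaperones of the 20S core. Psmg4 had 1590 and 686 counts and a ratio of 0.70 (0.639 to 0.766), rank 47 of 47, and Psmg3 had 2391 and 1173 counts and a ratio of 0.796 (0.742 to 0.854). Their fellow chaperones stood near 1, with Psmg2 at 1.11 (1.04 to 1.17) and Psmg1 at 1.02 (0.968 to 1.09). Of the chaperones of the 19S base, Psmd10, also called gankyrin, had 4172 and 1986 counts and a ratio of 0.772 (0.732 to 0.815). Psmd9 had a ratio of 0.853 (0.812 to 0.896) and Psmd5 a ratio of 1.07 (1.04 to 1.11). Psmf1, which encodes the regulator PI31, had 2916 and 1948 counts and a ratio of 1.08 (1.02 to 1.15).

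Base composition moved with the order of the genes outside the inducible group. Over all 15080 tested genes with an mRNA in GENCODE release M21, the median log2 ratio was 0.23 in the bin of lowest GC content and declined from bin to bin, with 1 exception, to -0.30 in the bin of highest, over 20 bins of equal size. Across the 42 other members the log2 ratio and mRNA GC content had a Pearson correlation of -0.59 and a Spearman correlation of -0.61, given as a description of genes from the same 2 libraries. Within the 11 non-ATPase genes the Pearson correlation was -0.89, within the 6 ATPase genes -0.73 and within the 7 alpha ring genes -0.45. Over all 47 members, with the inducible genes, it was -0.22. Psmc6, at 37.0% GC, and Psma3, at 40.8%, stood near the top, and Psmd3, at 58.3%, near the bottom. Psmd10 went the other way, with 42.3% GC and a low ratio. Relative to genes of like GC content, 20 of the 42 other members lay above 0 and 22 below, with a median of -0.006. The part of base composition in the ratio of any 1 gene was not tested.

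The inducible genes lay against this trend. Their GC content was 52.8% to 56.5%, where the typical gene was lower with acupuncture, and relative to genes of like GC content their median log2 ratio was 0.61 with all 5 above 0. Psmb10 stood at 0.78, Psmb9 at 0.76, Psmb8 at 0.61, Psme2 at 0.41 and Psme1 at 0.24 on that scale. In 2 of the 3 substitution pairs the partners matched in GC content, at 55.8% for Psmb8 and 56.6% for Psmb5, and at 55.3% for Psmb9 and 55.8% for Psmb6. In the remaining pair Psmb10 had 56.5% and Psmb7 48.7%. Partners differed in mRNA length, at 1628 bases for Psmb8 and 899 for Psmb5. Psmb9 had 1352 and Psmb6 798, and Psmb10 1311 and Psmb7 1160. Over 20 bins of length the median log2 ratio of all genes was -0.21 in the shortest, up to 913 bases, and -0.07 at 1200 to 1437. Relative to genes of like length Psmb8 and Psmb5 stood at 0.54 and -0.14. Psmb9 and Psmb6 stood at 0.71 and 0.05, Psmb10 and Psmb7 at 0.73 and 0.11. The part of length in the pair ratios was not tested.

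**Figure D3:**
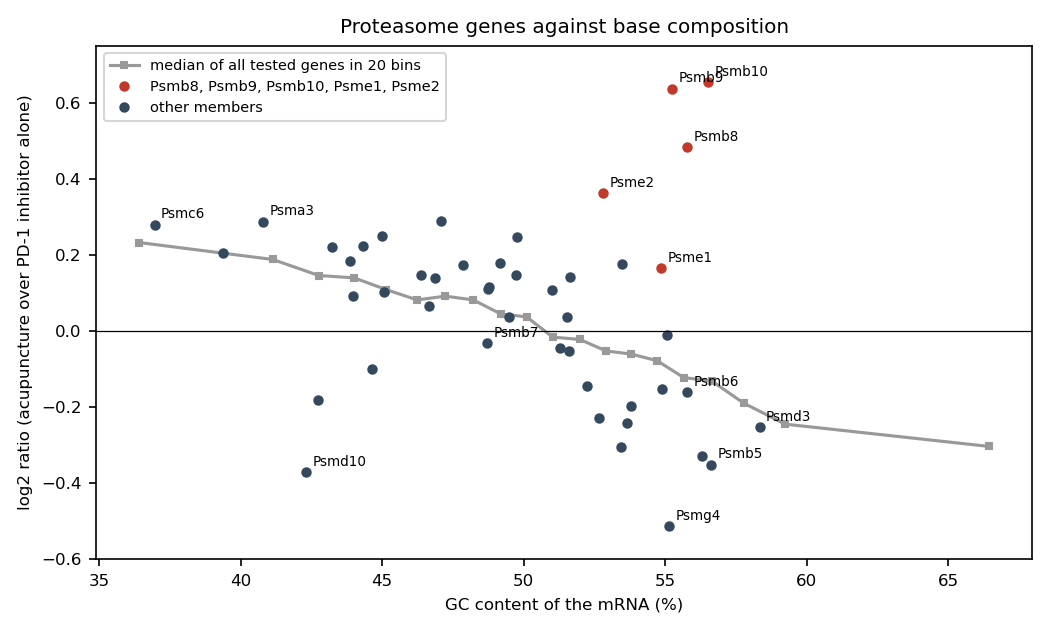
Log2 ratio of each proteasome gene (acupuncture over inhibitor alone) against the GC content of its mRNA in percent. Grey squares are medians of all tested genes in 20 bins, running from 0.23 to -0.30; the blue points of the other members scatter around that line, and the 5 red inducible genes lie above it.

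Beside the proteasome, 1 of the 14 genes that load and carry its peptides, Tap1, passed the 2-fold limit, against 9.21% of all tested genes. At 1.5-fold 4 of the 14 were higher and none lower, against 14.3% and 10.3%. Under TMM scaling 10 of the 14 had log2 ratios above 0 and 4 below, namely H2-K1, H2-D1, Calr and Canx. Psmb8 and Psmb9 lie in the MHC region of chromosome 17 with Tap1 between them and Tap2 beyond Psmb8, in RefSeq order. Tap1 and Tap2 encode the transporter that carries peptides into the endoplasmic reticulum. Tap1 had 14102 and 17955 counts and a ratio of 2.07 (2.02 to 2.11), and Tap2 had 16538 and 14661 counts and a ratio of 1.44 (1.41 to 1.47). Psmb9 and Tap1 are transcribed away from each other from starts 226 bases apart, so their windows share 275 bases. Psmb9 over Tap1 was 0.753 times as high with acupuncture (0.725 to 0.782). The median log2 ratio of the 14 loading genes was 0.35 and their summed CPM was 1.09 times as high. B2m, the light chain of class I, had a ratio of 1.29 (1.28 to 1.30) and the heavy chain H2-D1 a ratio of 0.938 (0.931 to 0.946). Tapbpl, a peptide editor, had a ratio of 1.88 (1.79 to 1.96).

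Of 23 measured genes of the interferon gamma response 17 had larger ratios than every inducible proteasome gene. Of the 23, 15 passed the 2-fold limit upwards and 0 downwards, against 9.21% of all tested genes, and the median log2 ratio was 1.62. The receptor genes Ifngr1 and Ifngr2 and the kinase gene Jak2 lay below every inducible proteasome gene, at ratios of 0.943, 0.746 and 0.814. Ifng itself had 15 and 167 counts. Gbp2, a GTPase of defence against microbes, had a ratio of 3.08 (3.02 to 3.14), and the chemokine Cxcl9 one of 5.42 (5.19 to 5.67). Irf1, a factor that drives immunoproteasome genes, had 19388 and 21927 counts and a ratio of 1.84 (1.80 to 1.87). Nlrc5, the activator of class I genes, had 9792 and 11254 counts and a ratio of 1.86 (1.81 to 1.92). In the list of interferon-induced genes of the ubiquitin-like system, 1 of 6 was at least 2-fold higher and none lower. The shares of all tested genes were 9.21% and 4.9%. At 1.5-fold 5 of the 6 were higher and none lower, against 14.3% and 10.3%. The gene above 2-fold was Ubd, whose product FAT10 targets proteins to the proteasome, with 437 and 2541 counts and a ratio of 9.43 (8.52 to 10.5). The modifier Isg15 had a ratio of 1.78 (1.72 to 1.84), and its conjugating enzyme Ube2l6 and its activating enzyme Uba7 had ratios of 1.93 and 1.41.

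Genes that serve every proteasome lay on both sides of 1 under TMM scaling. Of 7 measured proteasome genes with other symbols none was 2-fold different, against 9.21% of all tested genes higher and 4.9% lower. At 1.5-fold 1 of the 7, Sem1, was lower and none higher, against 10.3% and 14.3%. The median log2 ratio of the 7 was 0.09, and 4 lay above 0 and 3 below. The abundant adaptor Ecpas had a ratio of 1.07 (1.04 to 1.10) and the deubiquitinase Uchl5 one of 1.12 (1.07 to 1.16). Sem1, a small lid subunit, had 15585 and 6398 counts and a ratio of 0.666 (0.647 to 0.686). Pomp, the maturation factor of the core, had a ratio of 0.940 (0.916 to 0.964) and the ubiquitin receptor Adrm1 a ratio of 0.960 (0.930 to 0.990). Nfe2l1 encodes the transcription factor that raises all proteasome subunits when the protease is short, and it had 34228 and 18704 counts and a ratio of 0.887 (0.871 to 0.903). Of the 8 genes of its pathway and of the 11 ubiquitin and shuttle genes none was 2-fold different, against 9.21% and 4.9%. The median log2 ratios of these lists were -0.10 and -0.13. At 1.5-fold 1 of the 8, Maff, was lower and none higher, and none of the 11 was called, against 10.3% lower and 14.3% higher. Vcp, the segregase that delivers substrates to the proteasome, had a ratio of 1.08, and the small Maf genes Maff and Mafg, partners of NFE2L1, had ratios of 0.615 and 0.713. Polyubiquitin Ubb had a ratio of 0.912, and the ubiquitin-ribosome fusion gene Rps27a had a ratio of 0.713.

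Lymphocyte markers, from cells that carry the immunoproteasome without induction, were higher in the acupuncture library, while markers of other immune cells went both ways. All 16 T cell markers were at least 2-fold higher, with summed levels of 37.7 and 216 CPM, as were all 12 B cell markers, at 19.3 and 185 CPM. Of 9 dendritic cell markers 2 were at least 2-fold higher and none lower, against 9.21% and 4.9% of all tested genes. Their sum was 131 and 156 CPM, of which Irf8, also in the interferon gamma list, gave 68.3 and 97.7 CPM. The sum of the other dendritic cell markers was 62.7 and 58.2 CPM. Plasma cell markers had 4 of 4 tested higher, at 7.29 and 96.0 CPM. Lymph node markers had 7 of 9 higher; their sum was 713 and 637 CPM, of which Clu, a gene of many tissues, gave 701 and 426 CPM, and the sum of the others was 11.9 and 211 CPM. In the other direction all 8 neutrophil markers were at least 2-fold lower, with 562 and 157 CPM and a median log2 ratio of -1.91. Of 12 macrophage markers 3 were at least 2-fold lower and none higher, with a median of -0.33. Their sum was 7641 and 4517 CPM, of which Spp1 gave 4402 and 2054 CPM. The sum of the other macrophage markers was 3239 and 2463 CPM. Of 12 pan-leukocyte markers 1 passed the 2-fold limit, upwards, against 9.21% of all tested genes. At 1.5-fold 6 of the 12 were higher and none lower, against 14.3% and 10.3%. The list had a median log2 ratio of 0.50 and summed levels of 1171 and 1431 CPM. No defining marker of T cells, B cells or dendritic cells was at 0 in either library. The pan-leukocyte markers lay on both sides of the inducible genes. Of the 12, 6 had larger ratios than Psmb8 and 5 larger ratios than Psmb9 and Psmb10, as did Ptprc at 1.74, and 5 lay below all the inducible genes, as did Laptm5 at 0.888. In bulk tissue more cells of a type and more RNA per cell cannot be told apart, and the part of immune cell content in the ratios of Psmb8, Psmb9 and Psmb10 was not tested.

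Markers of other tissue differed as well. All 13 skeletal muscle markers were at least 2-fold higher, with summed levels of 262 and 2593 CPM, and 13 of 14 adipocyte markers, with 589 and 2325 CPM. Of 17 epithelial markers 3 were lower and none higher, against 4.9% and 9.21% of all tested genes at the 2-fold limit. Endothelial markers had 1 of 9 lower and fibroblast markers 1 of 9 higher. The 12 cell cycle genes had none at 2-fold and a median log2 ratio of 0.17. At 1.5-fold, 5 epithelial and 5 endothelial markers were lower and 4 fibroblast markers higher, with none in the other direction and no cell cycle gene called. The shares of all tested genes at that limit were 10.3% lower and 14.3% higher. The part of these tissues in the proteasome values was not tested.

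**Figure D4:**
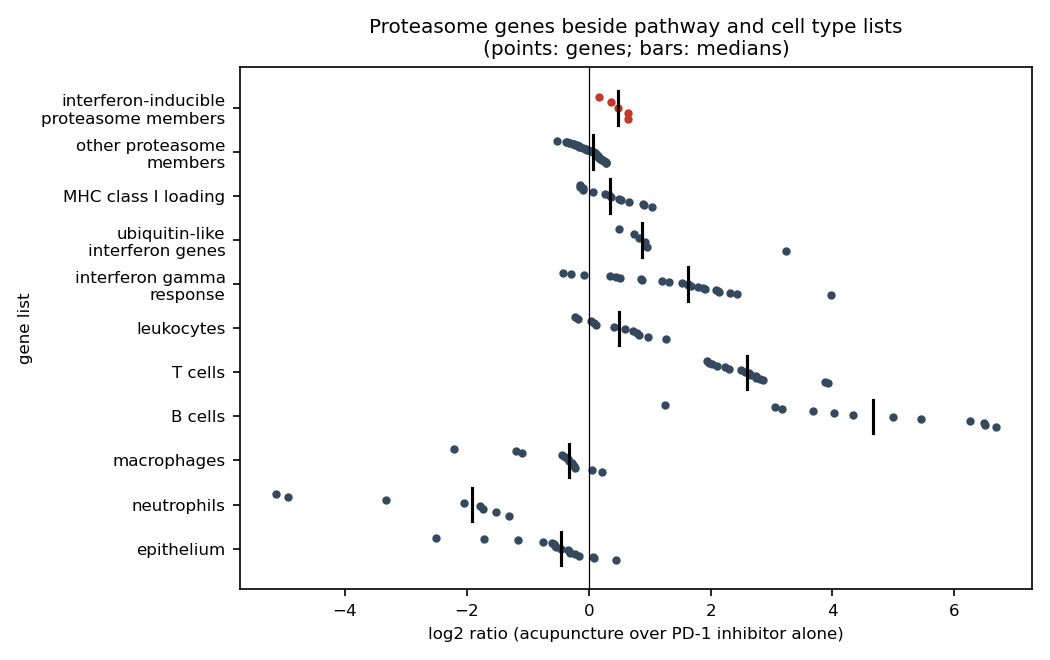
Log2 ratios (acupuncture over inhibitor alone) of the tested genes in each list, 1 point per gene, with a bar at the median. The inducible proteasome genes, at a median of 0.48, lie close to the leukocyte markers at 0.50 and below the interferon gamma response at 1.62; the other members centre at 0.08.

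Together the 47 genes took 0.680% of all counts with inhibitor alone and 0.780% with acupuncture, and their summed CPM was 1.07 times as high. The inducible genes gave 1123 and 1480 CPM of that, 1.32 times as high, and the other members 5914 and 6050 CPM, 1.02 times as high. Per length the members differed widely among themselves within each library. The alpha ring, whose subunits enter the core in equal numbers, ran from 39.3 CPM per 1000 bases for Psma2 to 265 for Psma7 with inhibitor alone, and from 45.4 to 292 with acupuncture. With all annotated exons as the length it ran from 31.2 for Psma2 to 169 for Psma5 with inhibitor alone, and Psma7 stood at 78.9. Psme1 stood at 316 and 354 and Psme2 at 299 and 384 on that scale, the highest levels of the family by mRNA length. By all annotated exons they were 159 and 178 for Psme1 and 163 and 209 for Psme2, and Psma5, at 169 and 191, lay above both with inhibitor alone. The chaperone gene Psmg4 stood at 28.1 and 19.6 by either length.

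Some members overlap other genes in RefSeq, and without a stated strand setting their reads may be shared. Psme1 shares 9 bases with Emc9, which had 587 and 339 counts. Psmd10 overlaps Atg4a, with 1280 and 913 counts, and Psme4 overlaps Erlec1, with 4050 and 2639 counts. Psma3, Psma4, Psmf1 and Psmd1 also overlap genes in the table, each of which had at most 356 counts in a library. The catalytic immune genes overlapped none.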

How the data were processed

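Messenger RNA of mouse breast tumour tissue was sequenced from 1 library per group. Per the labels' protocols, libraries were built from column-purified RNA with a SMARTer kit. The authors deposited raw whole-number counts per gene symbol, and the submitters' processing notes name GRCm39 and mm39; no aligner, counter, annotation or strand setting is named there or in the labels. Totals were 105728292 and 60752043 counts, a ratio of 1.74, and 0 lines named no gene.

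Library sizes were scaled by TMM (factors 0.966 and 1.04) in edgeR 4.0.16 under R 4.3.3. Ratios carry Clopper-Pearson 95% intervals and log2 ratios a prior count of 2. Genes whose counts in both libraries summed to at least 20 were tested for a 2-fold difference with an interval excluding 1. Intervals cover counting error only, since reads carried no molecular identifiers and may be copies of 1 molecule. mRNA lengths and GC content came from the principal or longest coding transcript. Alternatives were DESeq2 1.42.0 size factors, total, upper-quartile and trimmed totals, scaling to epithelial genes, prior counts of 0.5 and 5, count minimums of 1 and 100, lower fold limits, and thinning. GC and length bins were added after the data were seen. On simulated data at these depths (18719 genes, Poisson error only), 100% of 50 genes made 3-fold higher were called and 0.464% of 18519 unchanged genes; 95.6% of intervals held the true ratio.

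All tested members are named, with the 2 most abundant and 2 most different genes of pathway lists and a fixed set of regulators, except some genes that are not reported here. The members, lists and limits were chosen with earlier results of these data known. Other software was Python 3.11.15 with scipy 1.17.1, pandas 2.3.3, numpy 2.4.6 and matplotlib 3.10.9.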

Additional observations from a re-analysis of the deposited data

How the results depend on the processing

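No paired analysis was possible because each group had 1 library. Counts of members at 2-fold were 0 higher and 0 lower under every scaling, count minimum and interval rule tried, except that 2 were higher when the epithelial genes were centred on 0, a scaling that adds 0.44 to the median log2 ratio of all genes. Lower limits gave 2 higher at 1.5-fold, and 4 higher and 4 lower at a limit 25% above 1; at that limit total counts, with or without the 10 most abundant genes, gave 10 and 1, upper-quartile scaling 4 and 3, and the epithelial scaling 34 and 0, with 21 higher at 1.5-fold. The median log2 ratio of the inducible genes, 0.48, was 0.58 by total counts, with or without the 10 most abundant genes, both of which add 0.10 to all genes, 0.93 with the epithelial scaling and 0.40 from summed counts. That of the other members, 0.08, was 0.18, 0.18, 0.53 and 0.033 in the same order. Relative to genes of like GC content these medians were 0.61 and -0.0064 and the gap between them was 0.61; relative to genes of like mRNA length the inducible median was 0.54. Under the other settings the gap ran from 0.37 to 0.44. This lay within a range built from the counting intervals of the single genes nearest the 2 medians, which is not an interval of the gap itself. Ratios of the 3 substitution pairs after thinning the deeper library were 1.78, 1.71 and 1.62. Of 329 single member values under the scalings and prior counts, 192 stayed within the counting interval of the gene and 137 did not, and no inducible gene changed sign. Psma8 and Psmb11 had the fewest counts.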
